A study of Mus musculus with 4 samples.

Results

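Replication-dependent histone genes lie in a few genomic clusters and are transcribed mainly in S phase, when new DNA has to be packed into nucleosomes. Their products are the core histones H2A, H2B, H3 and H4, which form the nucleosome around which DNA winds, and the linker histone H1, which binds where DNA enters and leaves it. Most of their mRNAs end in a stem-loop bound by SLBP in place of a poly(A) tail, and several of the genes, H1f2, H2bc4 and H2bc21 among them, are also known to make polyadenylated transcripts in cells that do not divide. The members were the array's probes whose target name begins with HIST1H, HIST2H, HIST3H or HIST4H. This gave 60 of 25697 probes and 56 of 17916 genes: 6 of H1, 15 of H2A, 15 of H2B, 9 of H3 and 11 of H4. Their RefSeq locations put 44 members on chromosome 13, 8 on chromosome 3, 3 on chromosome 11 and 1, H4f16, on chromosome 6.

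RNA was read on Illumina MouseRef-8 BeadChips from flow-sorted bone marrow cells of C57BL6/J mice, with 1 array for each of 4 groups. The groups were B220+CD43- cells of Btg1-/-;Btg2-/- double knockout (dKO) mice, B220+CD43- cells of wild-type (WT) mice, B220+CD43+ cells of dKO mice and B220+CD43+ cells of WT mice. B220 is the B-lineage form of CD45. CD43+ cells correspond to the earlier Hardy fractions A to C and CD43- cells to the later fractions D to F. Btg1 and Btg2 are antiproliferative and recruit the CCR4-NOT complex, which removes poly(A) tails, and both alleles of each were lost in dKO mice. The labels give no age or sex and do not say how many animals gave each sample or whether the fractions of a genotype came from the same animals. No group had a replicate, so no test can be made of a difference between 2 groups. The error given is the bead standard error (SE), which covers the measurement on the chip alone.

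Btg1 read 8114.9 in dKO and 19425.1 in WT CD43- cells, and 3459.3 in dKO and 8610.2 in WT CD43+ cells. Btg2 was not detected on any array, and where either probe lies relative to the deleted parts is not given in the sources used here. Mean signal over all probes was 648.1 in dKO and 555.2 in WT CD43- cells, and 662.1 in dKO and 550.7 in WT CD43+ cells, and 39.5% to 43.3% of probes were detected. Of 14 tested B-lineage markers, 6 were at least 2-fold higher and 2 lower in CD43- than in CD43+ cells, in dKO and in WT alike. Over all genes tested, 6.06% were higher and 10.6% lower in dKO, and 7.85% and 11.2% in WT. Most of the list rose, with 10 of 14 markers above 0 in dKO (median log2 difference 0.70) and 11 of 14 in WT (0.77). Spn, which encodes CD43, was detected only on the CD43+ arrays. Against the direction of most of the list, Dntt and Vpreb1 of early B cells were lower in CD43- cells of both genotypes. The CD43+ arrays also carried other cells' markers, with the plasmacytoid dendritic cell list at a summed level of 76660 in dKO and 67707 in WT cells.

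Probe sequences were not used here, so the sequences shown are promoters of the members the results turn on. The promoter of the member with the largest increase in dKO over WT CD43- cells is shown for each family, among members with a RefSeq entry. The promoters of H1f2 and H2ac18 follow, because these genes were lower in dKO cells. Each line gives the 150 bases before the RefSeq start, 5′ to 3′ on the gene's strand (GRCm38.p6). Capitals mark a match on either strand to CCAAT, the octamer, TATAAA or an E2F-like motif.
H4c3 (H4), chr13:23698459-23698608, minus strand: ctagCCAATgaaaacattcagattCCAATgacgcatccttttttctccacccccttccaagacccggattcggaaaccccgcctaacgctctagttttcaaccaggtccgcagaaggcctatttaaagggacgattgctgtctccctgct
H2bc3 (H2B), chr13:23746584-23746733, plus strand: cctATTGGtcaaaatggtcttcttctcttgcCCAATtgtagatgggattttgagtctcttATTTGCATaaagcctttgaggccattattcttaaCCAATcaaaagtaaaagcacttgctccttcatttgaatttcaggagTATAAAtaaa
H3c3 (H3), chr13:23745522-23745671, minus strand: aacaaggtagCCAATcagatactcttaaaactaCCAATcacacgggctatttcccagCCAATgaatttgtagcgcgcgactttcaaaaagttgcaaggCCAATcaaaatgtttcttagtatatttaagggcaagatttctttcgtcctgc
H1f5 (H1), chr13:21780626-21780775, minus strand: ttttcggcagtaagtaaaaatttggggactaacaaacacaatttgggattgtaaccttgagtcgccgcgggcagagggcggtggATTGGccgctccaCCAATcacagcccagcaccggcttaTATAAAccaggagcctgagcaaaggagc
H2ac11 (H2A), chr13:22042950-22043099, minus strand: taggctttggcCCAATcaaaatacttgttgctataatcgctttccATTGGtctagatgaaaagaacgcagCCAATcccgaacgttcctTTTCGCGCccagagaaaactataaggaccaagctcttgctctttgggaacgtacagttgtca
H1f2 (H1), chr13:23738657-23738806, plus strand: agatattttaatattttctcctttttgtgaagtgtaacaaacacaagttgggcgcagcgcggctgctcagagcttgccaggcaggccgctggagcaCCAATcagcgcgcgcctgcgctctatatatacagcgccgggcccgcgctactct
H2ac18 (H2A), chr3:96245347-96245496, plus strand: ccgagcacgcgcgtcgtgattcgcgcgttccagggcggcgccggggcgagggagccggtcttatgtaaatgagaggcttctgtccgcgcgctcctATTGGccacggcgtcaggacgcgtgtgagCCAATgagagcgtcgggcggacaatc

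Over the window from 250 bases before to 50 after the start, 50 members had a promoter entry, and each motif was counted on its own even where matches overlap. The octamer ATGCAAAT, bound by Oct factors, lay in 7 of 15 H2A and 7 of 12 H2B promoters and in none of the 6 H1, 7 H3 and 10 H4 promoters, against 1.74% of all 32851 promoters. CCAAT, bound by NF-Y, lay in all 40 H1, H2A, H2B and H3 promoters and in 2 of 10 H4 promoters, against 37.4% of all. TATAAA lay in 30 of 50 member promoters and 13.6% of all, on either strand. An E2F-like match, which is TTTGGCGC or, as the other spelling searched, TTTCGCGC, lay in 5 H2A and 3 H2B promoters and 0.813% of all. H2A and H2B genes that lie head to head have overlapping windows, so 1 site can be counted in both promoters. All 3 H2B genes with an E2F-like match (H2bc7, H2bc11 and H2bc12) have such a partner with a match (H2ac7, H2ac11 and H2ac12). For the octamer the same holds for H2bc1, H2bc8 and H2bc12 with H2ac1, H2ac8 and H2ac12. The H2B genes with an octamer had a median dKO minus WT difference of 1.54 in CD43- cells (6 genes tested) and those without one 1.44 (5 genes), on the log2 scale. Whether a factor binds these letters was not measured.

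Of the 56 members, 52 were detected (detection p under 0.01) on at least 1 array and 48 on all 4. H1f3, H1f4 and H1f6, the last a testis linker histone, and H2bc1, a testis H2B, were detected on none. H2ac1 was detected on the WT CD43+ array alone, with 165.7 there, against 149.8 in dKO CD43+, 148.2 in dKO CD43- and 158.6 in WT CD43- cells. H2bu2 was detected on the dKO arrays alone, with 182.3 and 171.3 in dKO CD43- and CD43+ cells, against 153.6 and 144.6 in the WT ones. The signals quoted are mean bead intensities before normalization. The differences are log2 values after background correction and quantile normalization, so they are not the log2 ratio of the quoted signals.

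**Figure D1:**
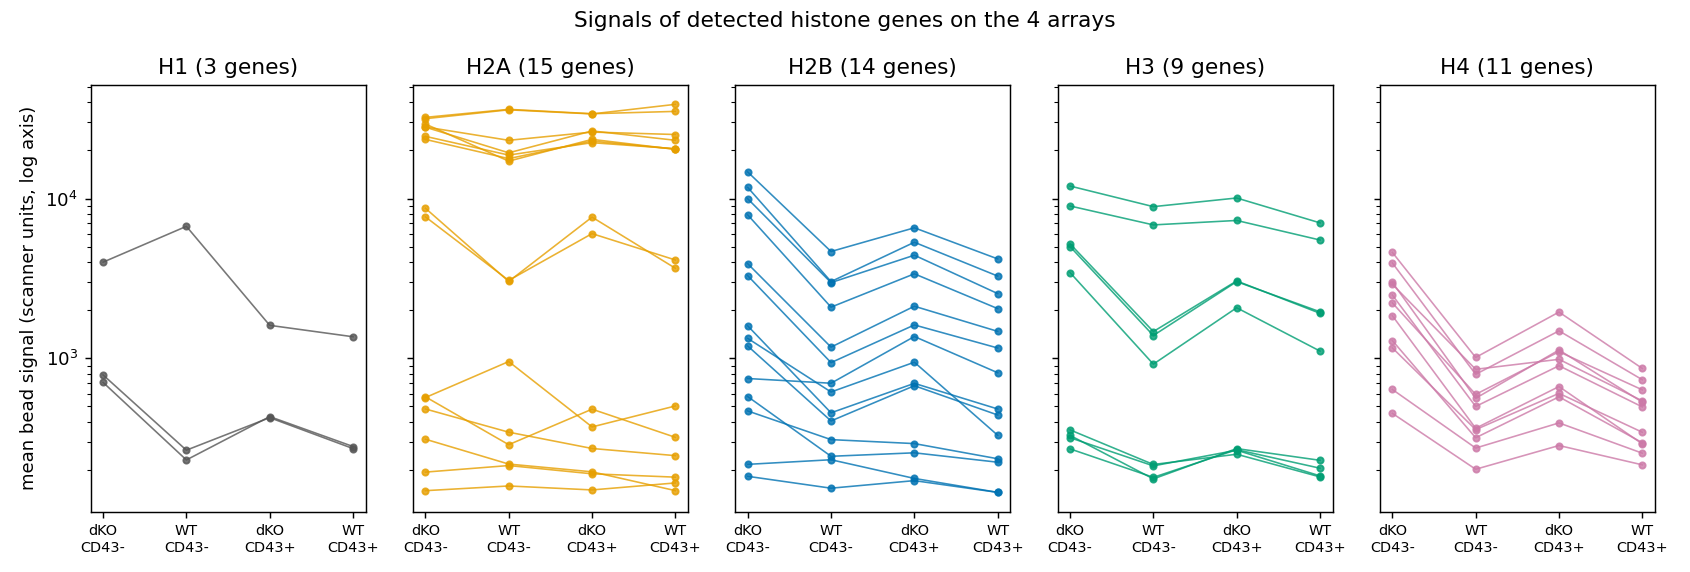
Signals of the 52 detected histone genes (scanner units, log axis) on the 4 arrays, 1 panel for each family and 1 line for each gene. H4 lines peak on the dKO CD43- array, and 7 H2A genes stay between 17152 and 38898 on every array.

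In CD43- cells, 29 of 51 members tested (56.9%) were at least 2-fold higher in dKO than in WT, against 3.65% of all 7944 genes tested. 2 members, H1f2 and H2ac18, were at least 2-fold lower, against 2.59% of all genes. The median difference was 1.29 over the members and 0.01 over all genes, on the log2 scale. The families were not alike: at least 2-fold higher were 11 of 11 H4 genes, 9 of 14 H2B, 5 of 9 H3, 2 of 3 H1 and 2 of 14 H2A genes. Their medians were 1.99, 1.48, 1.08, 1.86 and 0.30. Without H4, whose genes encode the same protein, 18 of 40 members were at least 2-fold higher. By location, 25 of 39 members tested on chromosome 13 and 2 of 8 on chromosome 3 passed 2-fold upward. Most H4 genes lie on chromosome 13, so location and family are not separated in these counts. Probes of near-identical members of a family may read each other's transcripts, so these counts need not be counts of separate genes, and cross-reading was not tested.

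**Figure D2:**
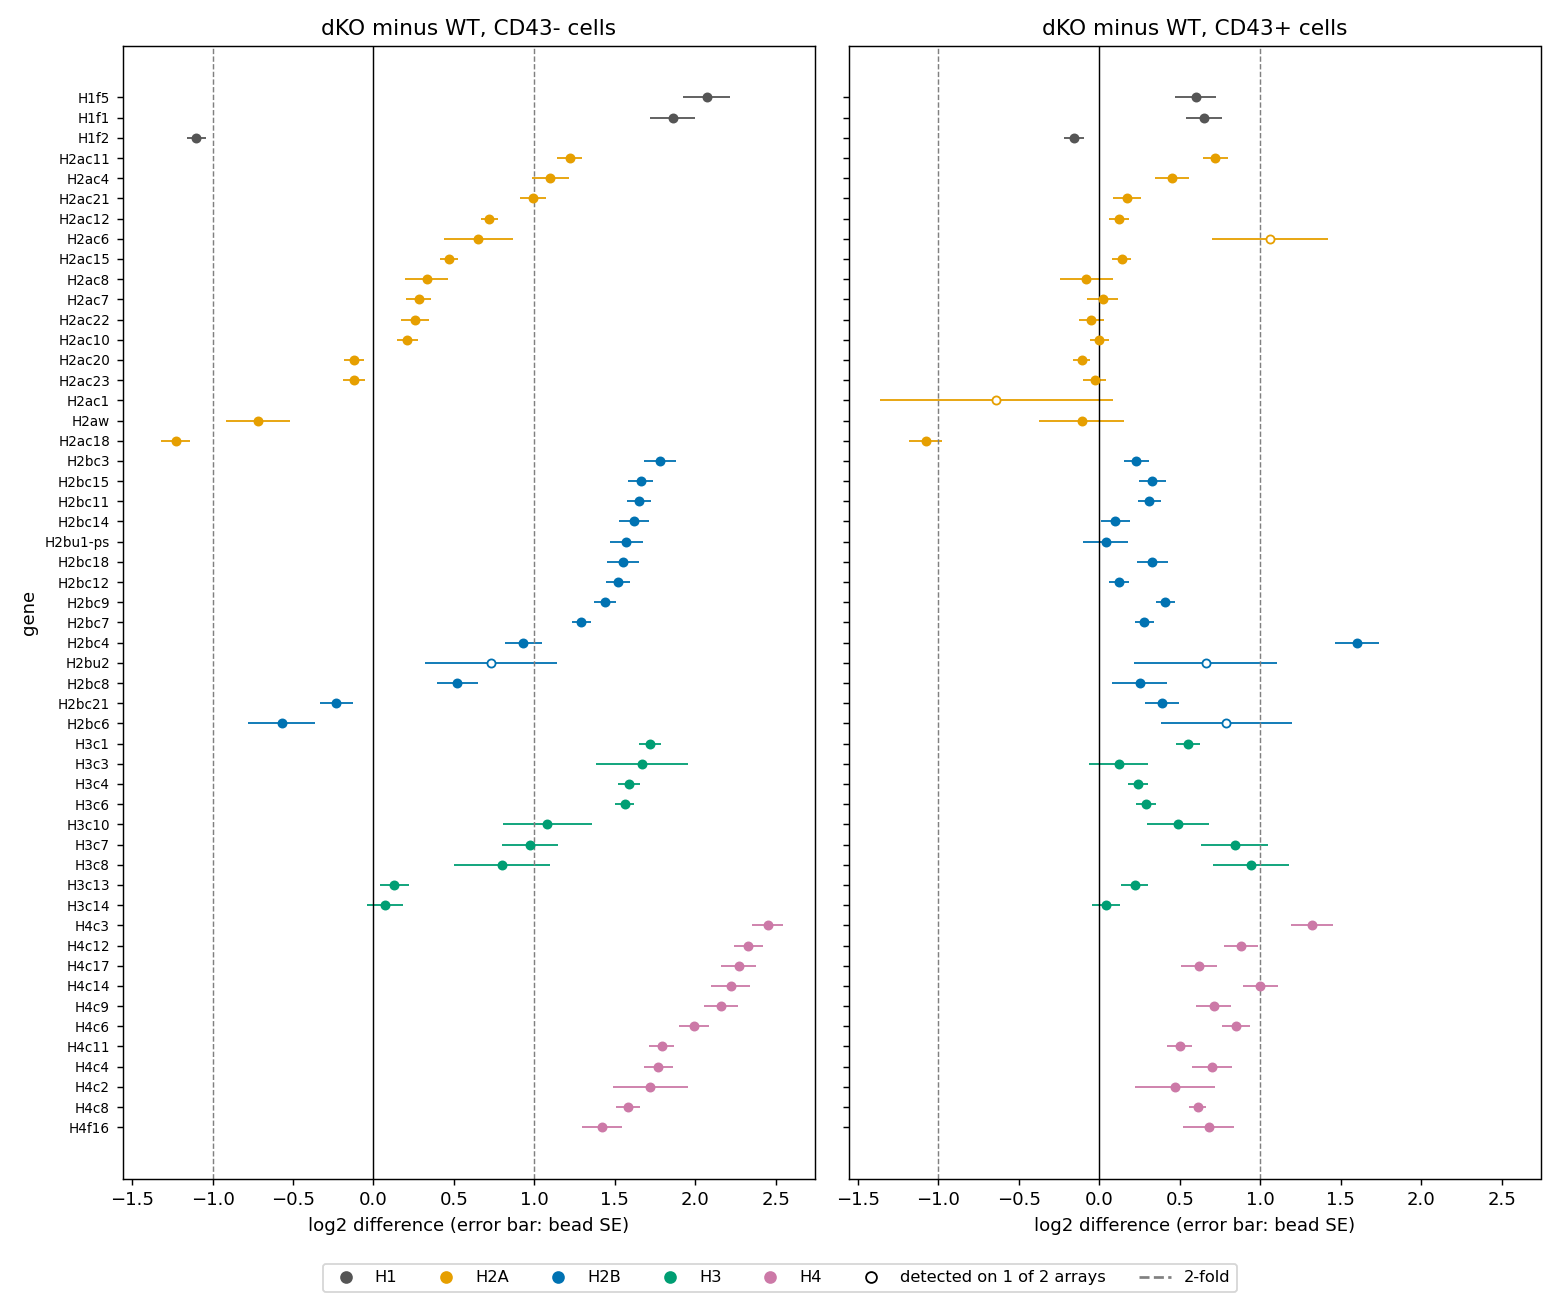
dKO minus WT log2 difference of each tested histone gene in CD43- cells (left) and CD43+ cells (right), with bead SE as error bars and dashed lines at 2-fold. All 11 H4 genes lie past the upper line in CD43- cells and 2 of them reach it in CD43+ cells.

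Histone H4 pairs with H3 at the core of the nucleosome. H4c3 showed the largest H4 difference, with signals of 1846.7 in dKO and 364.3 in WT CD43- cells, and 665 in dKO and 290.9 in WT CD43+ cells. The excess in dKO was 5.47-fold in CD43- cells (log2 2.45, bead SE 0.096) and 2.50-fold in CD43+ cells (1.32, bead SE 0.131). H4c3 was 1 of 2 H4 genes at least 2-fold higher in both fractions. The other was H4c14, with 1291.3 in dKO and 317.8 in WT CD43- cells (log2 2.22), and 573.4 in dKO and 295.8 in WT CD43+ cells (1.0, just at the threshold). H4c14 lies in the chromosome 3 cluster, while 9 of the H4 genes lie on chromosome 13.

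H4c12 read 2988.8 in dKO and 561.6 in WT CD43- cells (log2 2.33), and 1126.7 in dKO and 531 in WT CD43+ cells (0.88). H4c17 read 2487.7 in dKO and 499.1 in WT CD43- cells (2.27), and 897.8 in dKO and 495.8 in WT CD43+ cells (0.62). H4c9 read 3952.6 in dKO and 793.2 in WT CD43- cells (2.16), and 1484.5 in dKO and 733.5 in WT CD43+ cells (0.71). In these 3 genes the 2 WT arrays were close to each other, with CD43- minus CD43+ differences of 0.03 to 0.13 on the log2 scale. H4c6 read 4602.3 in dKO and 1012 in WT CD43- cells (1.99), and 1946.4 in dKO and 862.9 in WT CD43+ cells (0.85). H4c11 read 2222.1 in dKO and 594 in WT CD43- cells (1.79), and 1098.7 in dKO and 633.9 in WT CD43+ cells (0.50).

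In all 11 H4 genes the dKO CD43- array was the highest, and the dKO CD43+ array was the next in signal, though for H4c8 the WT CD43- array was the next after normalization (9.71 in WT CD43- against 9.51 in dKO CD43+ cells, log2). H4c4 read 1161.7 in dKO and 357.4 in WT CD43- cells (log2 1.77), and 602.8 in dKO and 344 in WT CD43+ cells (0.70). H4c2 read 452.1 in dKO and 201.8 in WT CD43- cells (1.72), and 284.2 in dKO and 215.1 in WT CD43+ cells (0.47). Among the H4 genes, WT cells differed most by fraction for H4c8 (CD43- minus CD43+ 0.80, log2), followed by H4c3 (0.65). H4c8 read 2906 in dKO and 852.8 in WT CD43- cells (1.58), and 984.9 in dKO and 540.9 in WT CD43+ cells (0.61). H4f16, the solitary gene on chromosome 6, had the smallest H4 difference in CD43- cells, with 637.9 in dKO and 274 in WT cells (1.42, bead SE 0.126). In CD43+ cells it read 393.7 in dKO and 254.4 in WT cells (0.68, bead SE 0.159).

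Histone H2B forms the dimer with H2A. In CD43- cells 9 of 14 tested H2B genes passed 2-fold upward in dKO, by log2 1.29 to 1.78. The first of them, H2bc3, read 1595.9 in dKO and 455.4 in WT CD43- cells (log2 1.78, bead SE 0.099), and 696.4 in dKO and 481.3 in WT CD43+ cells (0.23, bead SE 0.077). Its 2 WT arrays were close to each other (CD43- minus CD43+ -0.09), and the dKO CD43- array stood highest. H2bc15 read 7902.6 in dKO and 2089.5 in WT CD43- cells (1.66), and 3378.6 in dKO and 2045.5 in WT CD43+ cells (0.33). H2bc11 read 11745.1 in dKO and 3020.7 in WT CD43- cells (1.65), and 5325.4 in dKO and 3270.4 in WT CD43+ cells (0.31). H2bc14 read 3290.8 in dKO and 939 in WT CD43- cells (1.62), and 1616.5 in dKO and 1159.5 in WT CD43+ cells (0.10). These genes were alike in the order of arrays, with dKO CD43- highest and dKO CD43+ next.

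H2bc18, the H2B gene of this group on chromosome 3, read 1193.5 in dKO and 405 in WT CD43- cells (log2 1.55), and 673 in dKO and 441.3 in WT CD43+ cells (0.33). H2bc12 read 3908.6 in dKO and 1174.2 in WT CD43- cells (1.52), and 2117.3 in dKO and 1473.5 in WT CD43+ cells (0.12). H2bu1-ps, annotated as a transcribed pseudogene on chromosome 11, read 575.6 in dKO and 243.3 in WT CD43- cells (1.57), and 255.8 in dKO and 223.4 in WT CD43+ cells (0.04). H2bc9 and H2bc7 had the smallest differences of the 9 genes. H2bc9 read 9970.9 in dKO and 2976.9 in WT CD43- cells (1.44), and 4418.5 in dKO and 2540.5 in WT CD43+ cells (0.41). H2bc7 read 14672.1 in dKO and 4660.2 in WT CD43- cells (1.29), and 6559.8 in dKO and 4188.8 in WT CD43+ cells (0.28).

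5 H2B genes did not reach 2-fold in CD43- cells. H2bc4 was the exception among them in CD43+ cells, where it read 944.5 in dKO and 329.4 in WT cells, a 3.03-fold difference (log2 1.60, bead SE 0.137). In CD43- cells it read 1332 in dKO and 614.9 in WT cells (0.93, bead SE 0.115). The authors' RMA values gave H2bc4 0.66 in CD43+ and 1.35 in CD43- cells, the reverse order, and its other probe was not detected on any array. H2bc21, known as a polyadenylated H2B transcript of resting cells, had differences of opposite sign in the 2 fractions, with 746.7 in dKO and 697.6 in WT CD43- cells (-0.23, bead SE 0.101), and 1368 in dKO and 811.4 in WT CD43+ cells (0.39, bead SE 0.107). Its signals were higher in dKO in both fractions, so the opposite sign appears only after normalization, and with median scaling over all probes the differences were 0.02 and 0.74. H2bc6 read 216.6 in dKO and 231.5 in WT CD43- cells (-0.57, bead SE 0.209), and 176.8 in dKO CD43+ cells against 144.6, not detected, in WT CD43+ cells (at least 1.08-fold higher). H2bc8 read 467.8 in dKO and 309.4 in WT CD43- cells (0.52), and 292.2 in dKO and 234.8 in WT CD43+ cells (0.25).

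Histone H3 genes were all above 0 in CD43- cells, by 0.07 to 1.72 on the log2 scale. The 4 genes with the largest differences lie in the chromosome 13 cluster. H3c1 read 3440.8 in dKO and 918.4 in WT CD43- cells (log2 1.72, bead SE 0.068), and 2071.4 in dKO and 1108.7 in WT CD43+ cells (0.55, bead SE 0.076). H3c4 read 5005 in dKO and 1388.2 in WT CD43- cells (1.59), and 3018.1 in dKO and 1953.1 in WT CD43+ cells (0.24). H3c6 read 5208.2 in dKO and 1469.4 in WT CD43- cells (1.56), and 3048.6 in dKO and 1912.2 in WT CD43+ cells (0.29). Each of these 3 genes had its lowest signal in WT CD43- cells.

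With signals nearer the background, H3c3 read 329 in dKO and 175.6 in WT CD43- cells (log2 1.67, bead SE 0.286), and 271.9 in dKO and 229.6 in WT CD43+ cells (0.12, bead SE 0.182). H3c10 read 270.8 in dKO and 179.6 in WT CD43- cells (1.08, bead SE 0.278), and 267.6 in dKO and 204.9 in WT CD43+ cells (0.49, bead SE 0.193). H3c7 read 356.1 in dKO and 216.2 in WT CD43- cells (0.97), and 250.6 in dKO and 180.7 in WT CD43+ cells (0.84). The authors' RMA values gave H3c7 0.12 in CD43- and 0.66 in CD43+ cells, and its other probes were not detected on any array. Detected on all 4 arrays, these 3 genes had larger bead SEs than H3c1. The smallest H3 difference was that of H3c14 on chromosome 3, with 8984.7 in dKO and 6838.9 in WT CD43- cells (0.07, bead SE 0.113), and 7291.6 in dKO and 5499.4 in WT CD43+ cells (0.04, bead SE 0.086). The probes of H3c14 disagreed: the other detected one read 887.1 in dKO and 328.3 in WT CD43- cells (1.53), and 479.3 in dKO and 299.4 in WT CD43+ cells (0.64).

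The linker histone genes split. H1f5 read 706.4 in dKO and 230.8 in WT CD43- cells (log2 2.07, bead SE 0.146), and 431.2 in dKO and 280.1 in WT CD43+ cells (0.60). H1f1 read 786.6 in dKO and 265.7 in WT CD43- cells (1.86, bead SE 0.141), and 424.7 in dKO and 271.9 in WT CD43+ cells (0.65). H1f2 ran the other way in CD43- cells, with 3996.1 in dKO and 6698.9 in WT cells, a 2.14-fold lower value in dKO (log2 -1.10, bead SE 0.061). Its CD43+ signals were 1607.4 in dKO and 1363.3 in WT cells (-0.16), so the normalized values give the opposite sign to the signals there, the dKO array being the brighter one.

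H2A stood apart from its partner H2B, with 2 of 14 tested genes past 2-fold upward in dKO CD43- cells. These were H2ac11, with 8702.6 in dKO and 3026.5 in WT CD43- cells (log2 1.22) and 7650.6 in dKO and 3659.5 in WT CD43+ cells (0.72), and H2ac4. H2ac4 read 573.8 in dKO and 287.6 in WT CD43- cells (1.10), and 479.9 in dKO and 319.8 in WT CD43+ cells (0.45). H2ac21 was just under 2-fold, with 7685.6 in dKO and 3071.8 in WT CD43- cells (0.99) and 6030.6 in dKO and 4124.3 in WT CD43+ cells (0.17). A set of 7 H2A genes (H2ac7, H2ac10, H2ac12, H2ac15, H2ac20, H2ac22 and H2ac23) had signals of 17152 to 38898 on every array, where the highest signal of any probe was 36076.8 to 39129, and differences of -0.12 to 0.72 in CD43- cells. Whether these probes can still show a difference at that brightness was not tested. Of this set, H2ac23 differed least, with 32236.8 in dKO and 36187.2 in WT CD43- cells (-0.12), and 33977.1 in dKO and 35133.5 in WT CD43+ cells (-0.03).

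H2ac18 was at least 2-fold lower in dKO cells of both fractions. It read 567.3 in dKO and 953.7 in WT CD43- cells (log2 -1.23, bead SE 0.091), and 371.5 in dKO and 502.7 in WT CD43+ cells (-1.08, bead SE 0.101). The dim H2ac6 read 311.3 in dKO and 217.5 in WT CD43- cells (0.65), and 194.5 in dKO CD43+ cells against 148.3, not detected, in WT CD43+ cells (at least 1.41-fold higher). H2ac8 read 481.4 in dKO and 344.4 in WT CD43- cells (0.33), and 272.3 in dKO and 245.6 in WT CD43+ cells (-0.08). H2aw on chromosome 11, the remaining H2A gene, gave -0.72 in CD43- and -0.11 in CD43+ cells at signals of 180.1 to 212.9.

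Several H2A and H2B genes lie head to head with a short shared promoter, and 6 such pairs had starts within 500 bases in the RefSeq table. The 2 genes of a pair differed in how far dKO CD43- cells departed from WT. For H2bc15 and H2ac15, 164 bases apart, the log2 differences were 1.66 and 0.47. For H2bc12 and H2ac12, 178 bases apart, they were 1.52 and 0.72, and for H2bc7 and H2ac7, 174 bases apart, 1.29 and 0.28. H2bc11 and H2ac11, 249 bases apart, gave 1.65 and 1.22, and H2bc8 and H2ac8, 180 bases apart, 0.52 and 0.33. In all 5 pairs with both genes detected the H2B gene had the larger difference in CD43- cells, and in 3 of them the H2A probe was in the bright set above. The gap between H2bc8 and H2ac8 was about as large as their bead SEs (0.127 and 0.134) combined. In CD43+ cells H2ac11 was above H2bc11 (0.72 and 0.31), and H2ac12 and H2bc12 both gave 0.12. There H2bc7, H2bc8 and H2bc15 were above their partners.

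In CD43+ cells, 4 of 52 members tested were at least 2-fold higher in dKO, against 1.74% of all 8631 genes tested. They were H2bc4, H4c3, H2ac6 and H4c14, and H2ac6 drops out when its undetected WT value is taken at the detection limit. 1 member, H2ac18, was at least 2-fold lower, against 2.0% of all genes. The median was 0.33 over the members and 0.04 over all genes, and all 11 H4, all 9 H3 and all 14 H2B genes tested were above 0. Among these H2B genes, H2bc6 and H2bu2 were not detected in WT CD43+ cells. With the WT value taken at the detection limit, H2bc6 gave 0.12 and H2bu2 0.0, no longer above 0. The family medians were 0.70 for H4, 0.60 for H1, 0.32 for H2B, 0.29 for H3 and 0.00 for H2A.

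Of the 51 members tested in both fractions, 40 had a larger dKO minus WT difference in CD43- than in CD43+ cells, against 47.1% of the 7613 genes tested in both. The median of that difference between fractions was 0.82 over the members and -0.02 over all genes. It was 1.21 for H4 (larger in CD43- cells in 11 of 11 genes), 1.12 for H2B (11 of 14), 0.59 for H3 (7 of 9) and 0.28 for H2A (9 of 14). With 1 array in each group the difference between fractions was not tested.

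**Figure D3:**
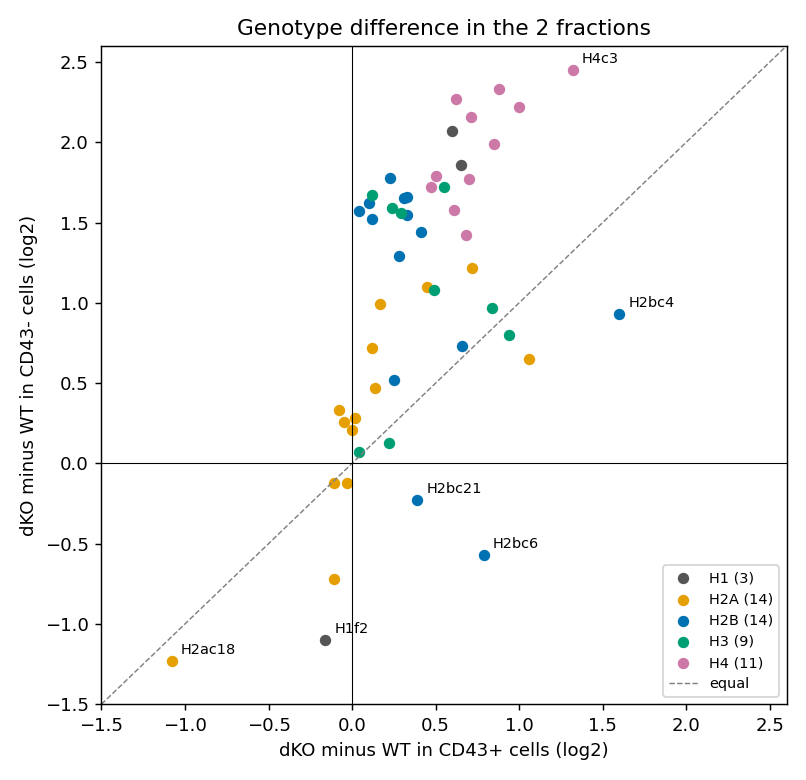
dKO minus WT log2 difference in CD43- cells (vertical) against that in CD43+ cells (horizontal) for the 51 histone genes tested in both, coloured by family, with the dashed line where both are equal. 40 genes lie above the line, and the farthest below it are H2bc6, H1f2, H2bc4, H2bc21 and H2aw.

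Between fractions of dKO marrow, 27 of 51 members tested were 2-fold or more higher in CD43- than in CD43+ cells, against 6.06% of all 8495 genes tested, and 0 were at least 2-fold lower, against 10.6% of all genes. They comprised 11 of 11 H4 genes, 10 of 14 H2B genes and 3 of 3 H1 genes, with 2 of 14 H2A and 1 of 9 H3 genes. The H3 gene was H3c7 (log2 1.03), for which the authors' RMA values gave 0.18. The median was 1.03 over the members and 0.05 over all genes. Of the members named above, H2bu1-ps had the largest value (log2 1.93), followed by H4c3 (1.78) and H4c8 (1.77). H2bc21 was lower in CD43- cells (-0.92), with the signals given above.

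In WT marrow the same contrast gave 6 of 51 members at least 2-fold higher in CD43- cells, against 7.85% of all 8539 genes tested, and 0 lower, against 11.2% of all genes. The median was 0.03 over the members, 0.15 over H4 and 0.06 over all genes. The 6 were H1f2 (log2 2.39), H2bc6 (at least 3.09-fold), H2ac6 (at least 2.69-fold), H2bc4 (1.32), H2ac18 (1.13) and H2ac8 (1.0). For H2bc4 the authors' RMA values gave 0.26, under 2-fold. The 29 and 27 members above share the dKO CD43- array, so neither count is independent of the other. The WT CD43- array likewise enters both the contrast between WT fractions and, with the opposite sign, that between genotypes in CD43- cells.

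A limma model with terms for genotype and fraction, which has 1 residual degree of freedom and takes a genotype effect that differs between fractions as noise, put 0 of 52 members past a Benjamini-Hochberg adjusted p of 0.05 for genotype, against 0.0223% of all 8962 genes. The smallest adjusted p among members was 0.169 (H2ac18, log2 -1.15, lower in dKO in 2 of 2 fractions), and that of H4c3 was 0.171 (1.89, higher in 2 of 2 fractions). At an unadjusted p under 0.05 the fit held 30 members, 28 of them higher in dKO, against 17.8% of all genes. For fraction it put 10 of 52 members past the adjusted p, all higher in CD43- cells, against 23.1% of all genes. The 10 were H2ac6, H1f2, H2ac18, H2ac8, H2bc8, H3c7, H4c8, H2bc6, H2bc4 and H3c8, with log2 differences of 0.69 (H3c8) to 1.92 (H1f2). In this fit H1f2 had an adjusted p of 0.0128 and H2ac6 of 0.00598.

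Lists of genes that act with the histones had smaller medians than H4, H2B and H3 in CD43- cells. The H2A median (0.30) was under those of the S phase (0.65) and G2/M (0.57) genes given below. The replication-independent histones, which replace the others outside S phase, had 0 of 9 tested members past 2-fold in CD43- cells and a median of 0.23. Over all genes tested, 3.65% were at least 2-fold higher and 2.59% lower in CD43- cells, and 1.74% and 2.0% in CD43+ cells. Counts of 0 in the short lists here and below are therefore near the share over all genes. The largest differences among them were H2aj (log2 -0.48), Cenpa of the centromere (0.40) and H3f3b, an H3.3 gene (0.35). In CD43+ cells also 0 of 9 passed 2-fold (median 0.02), led by H2ax of the DNA damage response (-0.29), H2aj (-0.25) and H1f10 (0.17). Histone chaperones, which carry histones to DNA, had 0 of 18 tested members at least 2-fold higher and 1 lower in CD43- cells (median 0.11). Over all genes tested there, 2.59% were lower. In CD43+ cells 0 of 17 chaperones passed 2-fold (-0.09). Their largest values in CD43- cells were Atrx (the 1 lower gene, detected on the WT array alone and under 2-fold at its bound, at least 1.48-fold lower), Mms22l (0.88) and Chaf1a of the CAF-1 complex (0.78). In CD43+ cells they were Asf1b (-0.89), Ipo4 (-0.74) and Chaf1b (-0.38).

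Slbp was not detected on any array (123.1 to 144.9), so its level could not be compared. Of the other histone mRNA processing genes, 0 of 10 tested passed 2-fold in either fraction, with medians of 0.07 in CD43- and 0.14 in CD43+ cells. Over all genes tested, 3.65% were higher and 2.59% lower in CD43- cells, and 1.74% and 2.0% in CD43+ cells. The largest were Ice2 (log2 -0.65), the cleavage factor Cpsf2 (0.58) and the RNA helicase Upf1 (0.54) in CD43- cells, and Srrt (-0.48), Cstf2 (0.47) and Upf1 (0.44) in CD43+ cells. Regulators of histone gene transcription had 0 of 11 past 2-fold in CD43- cells (median 0.12). The largest differences were those of Hcfc1 (0.73), Sp1 (0.51) and Pou2f2, encoding the octamer-binding Oct-2 (-0.40). In CD43+ cells 1 of 11 was at least 2-fold lower, against 2.0% of all genes tested, and 0 higher (median 0.00). That gene was Hinfp, an activator of H4 genes, which was detected on the WT array alone and is no longer 2-fold lower at its bound (at least 1.87-fold), followed by Hcfc1 (0.73) and Sp1 (0.42).

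Genes of S phase, when these histones are made, had 5 of 28 tested members at least 2-fold higher and 0 lower in dKO CD43- cells. Of the 28, 25 were above 0, with a median of 0.65. Over all genes tested there, 3.65% were higher and 2.59% lower, with a median of 0.01. Cdc6, a licensing factor, read 1060.6 in dKO and 450.7 in WT CD43- cells (log2 1.14), and Pole and Dnmt1 also gave 1.14. In CD43+ cells 0 of 28 passed 2-fold (median 0.11), with Mcm7 (-0.78), Pole (0.69) and Dnmt1 (0.59) the largest. G2/M genes had 1 of 12 at least 2-fold higher, against the same 3.65% of all genes, and 0 lower in CD43- cells (median 0.57, 12 of 12 above 0). The largest were Ccna2 (detected on the dKO array alone, at least 2.50-fold), Ccnb1 (0.80) and Cdc20 (0.69). In CD43+ cells 0 of 12 passed 2-fold (median -0.13), with Ccna2 (at least 1.57-fold higher), Plk1 (-0.41) and Nusap1 (0.37) the largest. The histone difference in CD43- cells thus stood beside one in S phase and G2/M genes. In bulk samples more cells in S phase and more polyadenylated histone RNA in each such cell cannot be told apart. The labelling primed on poly(A) tails, so total histone RNA, with the transcripts that lack a tail, was not measured.

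**Figure D4:**
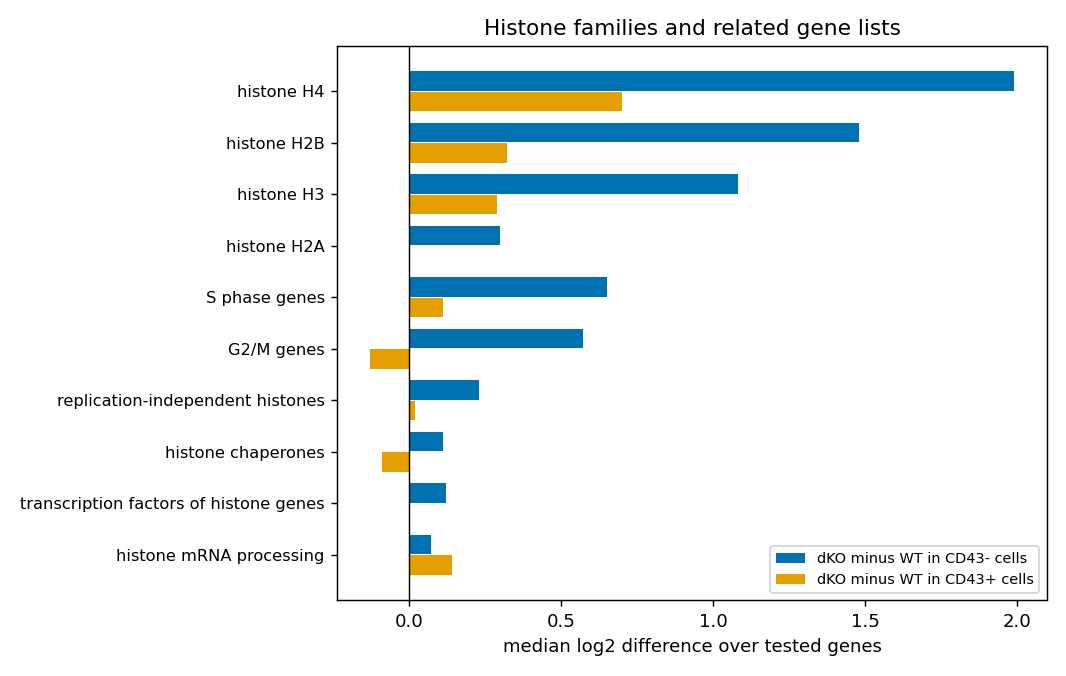
Median dKO minus WT log2 difference of histone families and of related gene lists in CD43- cells (blue) and CD43+ cells (orange), over the tested genes of each. H4 reaches 1.99 and S phase genes 0.65 in CD43- cells, and the bars in CD43+ cells are at most 0.70.

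Markers of other cells differed between the genotypes as well. In CD43- cells, 4 of 8 tested plasmacytoid dendritic cell markers were at least 2-fold higher in dKO, against 3.65% of all genes tested. The summed level of that list was 15367 in dKO and 11238 in WT cells, and Siglech read 1175.8 in dKO and 228.4 in WT cells. The natural killer list had 4 and the T cell list 3 markers tested there, with summed levels of 2095 and 1300 in dKO against 1259 and 694 in WT CD43- cells. Of the natural killer markers only 2 of 4 were above 0 (median log2 difference 0.22), and of the T cell markers 3 of 3 (0.63). In CD43+ cells, 8 of 11 tested neutrophil markers were at least 2-fold lower in dKO, against 2.0% of all genes tested (summed level 7180 in dKO and 33213 in WT cells). B-lineage markers had a median of 0.08 in CD43- and 0.17 in CD43+ cells. Mature B markers had a median of -0.20 in CD43- and -0.31 in CD43+ cells, and erythroid ones -0.08 and -0.23. The part of these cells in the histone differences was not tested.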

How the data were processed

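RNA from 4 sorted samples was labelled as cRNA with an Ambion TotalPrep kit, per the labels' protocols, which primes on poly(A) tails and so reads polyadenylated histone transcripts. Per the file headers, the authors deposited a GenomeStudio 1.9.0 export without normalization: for each probe, a mean bead intensity with its bead SD and bead number, and a score of detection. The deposited detection score is a fraction from 0 to 1, and 1 minus it was taken as the detection p. The authors also deposited RMA values on the log2 scale, whose settings are not given here. The series matrix was identical to them for 18119 of 18119 shared identifiers (column medians 3.77 in dKO and 3.77 in WT CD43- cells, 3.79 in dKO and 3.78 in WT CD43+ cells). It thus holds the RMA values on the same scale and in the same direction. With medians this far above 0, the values were not centred on 0 gene by gene.

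Intensities were corrected by normexp, with the negative controls inferred from the detection p and an offset of 16, and quantile normalized over the 4 arrays (limma 3.58.1, R 4.3.3). Each gene was given by its probe with the highest mean, and a comparison covered genes with detection p under 0.01 on at least 1 of its 2 arrays. The threshold was 2-fold. A gene detected on 1 of the 2 arrays is given as a bound, against the higher of its own value and the lowest detected value of the other array. The genotype term was also fitted in an additive limma model with Benjamini-Hochberg adjustment over 8962 genes, which treats the fractions as independent. The gene calculations used Python 3.11.15 and pandas 2.3.3, and the normalization and fit were tested on simulated data. The simulated genotype folds were the same in both fractions, with no difference between fractions. That test therefore could not check the fit where a genotype effect differs between fractions. Probes had a median of 38 to 39 beads, with a bead SE of 4.00% to 4.06% of the signal, and the number of arrays limits the precision.

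All 56 members matched a RefSeq synonym (GRCm38.p6). The array files name no genome build, so coordinates are given for RefSeq promoters only. Every detected member at least 2-fold different in any of the 4 comparisons is named with its signals, with the member of each family that differed least between genotypes and the 3 largest differences of each related list. Members, lists and tests were chosen with earlier results of these data known. The alternatives were no background correction, an offset of 50, median scaling, RMA values, the mean of a gene's detected probes, a detection p of 0.05 and bounds for genes detected on 1 array.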

Additional observations from a re-analysis of the deposited data

Results flagged for a closer look

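H2bc21, which encodes an H2B of the chromosome 3 cluster, differed between genotypes in opposite directions in the 2 fractions: -0.23 in CD43- cells and 0.39 in CD43+ cells (dKO minus WT, log2), a gap of -0.62. It was set apart because each difference exceeds 2 bead SEs and their signs differ. The signs of H2ac8 (0.33 and -0.08), H2ac22 (0.26 and -0.05) and H2bc6 (-0.57 and 0.79, not detected in WT CD43+ cells) differ too, with at least 1 of the values within 2 bead SEs of 0. The signals of H2bc21 before normalization were higher in dKO in both fractions (746.7 in dKO and 697.6 in WT CD43- cells, 1368 in dKO and 811.4 in WT CD43+ cells). With median scaling over all probes its differences were 0.02 and 0.74, both above 0. With 1 array in each group, the difference between the fractions was not tested.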

How the results depend on the processing

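Across the alternatives, all 69 values of single members past 2-fold kept their direction. How many remained at least 2-fold was 68 with bounds, 69 with a detection p under 0.05, 69 with the mean of detected probes, 66 with RMA values, 65 with median scaling on detected probes (chosen after seeing the data), 62 with median scaling, 57 with an offset of 50 and 45 without background correction. Median scaling over all probes put the median of all genes at 0.248 in CD43- and 0.318 in CD43+ cells, against 0.007 and 0.041 with quantile normalization, so changes under it are relative to that shift. For dKO against WT CD43- cells it gave 1 member at least 2-fold lower and a median of 1.59, and no background correction a median of 0.97. For dKO against WT CD43+ cells, the members at least 2-fold higher numbered 1 without background correction, 2 with an offset of 50, 10 with median scaling and 2 with that on detected probes. Those at least 2-fold lower numbered 0, 0, 0 and 2 under the same settings, and 2 with RMA, and the median was 0.66 with median scaling. For CD43- against CD43+ cells without background correction, 17 members were at least 2-fold higher in dKO (median 0.76) and 1 in WT, beside 208 of 8495 and 249 of 8539 genes in all. In WT, 1 member was at least 2-fold lower with median scaling, 1 with that on detected probes and 1 with RMA. The additive fit put 17 members past the adjusted p for genotype and 21 for fraction without background correction, against 5.22% and 32.5% of all genes, and 0 and 2 with RMA, against 0% and 10.6% of all genes. The causes of these shifts were not tested. Genes called over all genes in CD43- cells numbered 290 higher and 206 lower, against 472 and 93 with median scaling and 235 and 235 with that on detected probes. In CD43+ cells they numbered 150 and 173, against 400 and 118, and 89 and 318. No paired analysis was possible because the labels carry no replicate numbers and each group holds 1 array. The limits are the single array in each group, the dim signals of members such as H2ac1 and H2bu2, the 7 bright H2A probes, and possible cross-reading between near-identical genes.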
